A study of Mus musculus with 17 samples.

Results

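Postn, Tnc, Fn1, Sparc, Thbs1, Thbs2, Tgfbi, Fbn1, Spp1 and Vcan encode non-collagen proteins of the extracellular matrix, and are 10 of the 43629 genes in the count table. They were chosen by symbol, and each was described in every library and sorted by whether cultured ID8 cells made it. All 10 passed the filter on low counts, more than 0.5 CPM (counts scaled to a common library total) in at least 2 libraries, which kept 22671 genes. Total RNA was sequenced from 17 libraries in 8 groups built around ID8, a line from the surface epithelium of the mouse ovary that serves as a model of ovarian cancer. The cultured line (n = 1) was untreated and grown in Dulbecco's medium with serum. Orthotopic tumours (n = 3) grew after injection of ID8 into the bursa of the right ovary, and subcutaneous tumours (n = 2) after injection under the skin, placed on the scruff by one label and on the flanks by the protocol. The ovarian tumours spread, and their ascites, the cell-bearing peritoneal fluid, was drawn by syringe in a first tap (n = 3) and a second tap (n = 3). Solid tumours on the intestine (n = 3) came from the same spread. Healthy ovary (n = 1) and healthy intestine (n = 1) came from untreated C57BL6 mice. The age of the animals, and the strain of those with tumours, are not given in the sources used here.

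Matricellular proteins are secreted into the matrix but act mainly as signals between matrix and cell rather than as its scaffold. Periostin (Postn), tenascin C (Tnc), the thrombospondins (Thbs1, Thbs2), osteonectin (Sparc), osteopontin (Spp1) and the TGF-beta-induced protein (Tgfbi) are of this kind, and many of them bind integrins. Fibronectin (Fn1) is a structural glycoprotein that cells assemble into fibrils, fibrillin-1 (Fbn1) is the main component of microfibrils, and versican (Vcan) is a large proteoglycan that binds hyaluronan. In ovarian cancer these proteins are known both from the tumour stroma and from ascites, where fibronectin takes part in the adhesion of tumour cells to the peritoneal lining.

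Library totals ran from 12031221 to 38902048 counts, with a median of 27342134. Subcutaneous tumour 3, first tap 3 and second tap 1 stood apart with 33393, 32846 and 32775 genes with a count, against 21157 to 26838 in the others. First tap 2 stood apart in the genes described here and is named wherever it carries a value. No label ties samples to animals, so p-values measure only the spread between these samples, which may be technical. The line, healthy ovary and healthy intestine are single libraries with no replicate check, and tests against them assume that they vary like the other groups. All samples other than the line are mixtures of cells, so fewer cells of a type and less RNA per cell cannot be told apart. The tissue labels were checked against marker genes. Intestinal epithelial markers summed to between 4788 and 12366 CPM in the tumours on the intestine, beside 9543 CPM in healthy intestine, so these tumour samples hold much host tissue. The 5 mesothelial and ovarian surface markers summed to 1505 CPM in the line, and granulosa cell markers to 1471 CPM in healthy ovary. Granulosa cell markers also summed to 352, 457 and 248 CPM in orthotopic tumours, against 14.8 to 93.9 CPM in ascites and 3.71 CPM in the line. Skeletal muscle markers summed to 12.3, 1956 and 402 CPM in orthotopic tumours 1, 2 and 3, so that group was uneven. In the tumours the mesothelial and ovarian surface markers summed to 534 to 1665 CPM at the orthotopic site, 33.5 and 571 CPM under the skin and 56.0, 294 and 472 CPM on the intestine, so subcutaneous tumour 2 and tumour 1 on the intestine held little of them. In ascites they summed to 300.3 to 5834 CPM, lowest in first tap 2. The part of any of these marked cell types in the matrix gene levels was not tested. The subcutaneous pair was not alike: tumour 2 held 1055 CPM of B cell and 1562.5 CPM of adipocyte markers, and tumour 3 held 723 CPM of keratinocyte markers.

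The line made 7 of the 10 genes, by the rule of at least 1 CPM in its library. Sparc (82358 counts), Fn1 (76323 counts) and Spp1 (51383 counts) were among its strongest genes, at ranks 19, 20 and 38 of all genes in that library. Thbs1 had 11182 counts and Vcan 4456 counts. Fbn1 had 362 counts and Tnc 95 counts, which is 9.59 and 2.52 CPM. Postn was near background with 10 counts, and Thbs2 and Tgfbi were absent with 0 counts, where 3 counts (0.0795 CPM) is the upper limit that a count of 0 allows for counting error. Of all 22671 tested genes 56.9% were made by the line, 20.2% were near background and 22.9% were absent. Divided by exon length, Spp1 led the line with 826 CPM per kb, before Sparc at 576 and Fn1 at 173 CPM per kb.

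**Figure D1:**
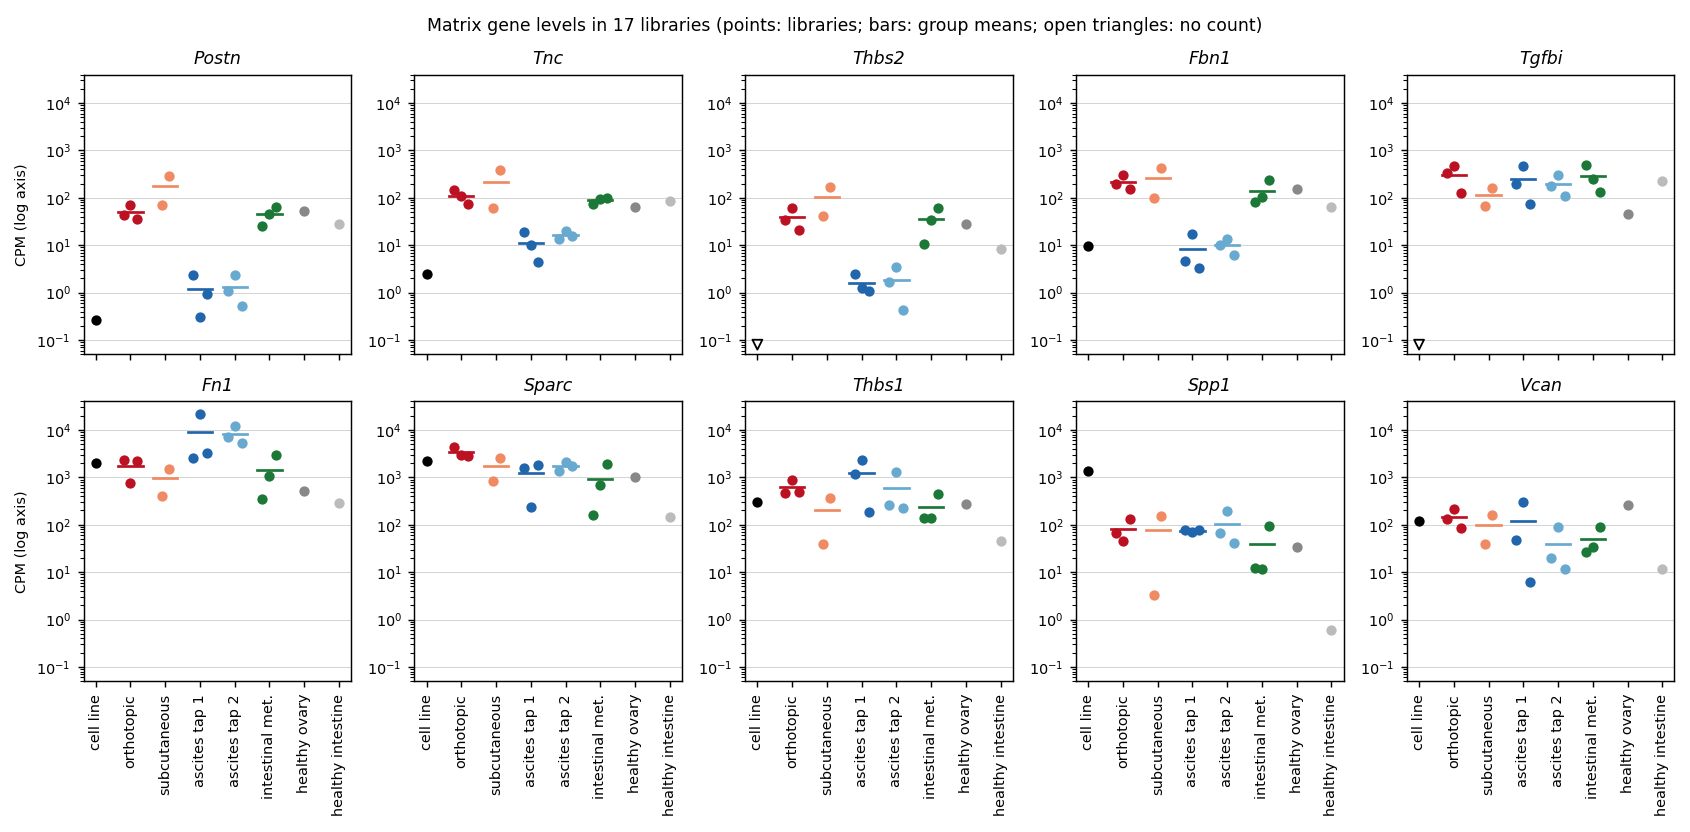
Level of each of the 10 genes in CPM on a log axis, 1 panel per gene, with 1 point per library, bars at group means and open triangles for libraries with no count. Postn, Tnc, Thbs2 and Fbn1 are low in the line and in both ascites taps and high in every solid sample, while Tgfbi is high in ascites too and has no count in the line.

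Postn, Thbs2, Tnc and Fbn1 separated every solid sample, tumour or healthy, from the line and the ascites. Each was higher in all 10 solid libraries than in any of the 7 line and ascites libraries. Over all tested genes 1.38% separated the libraries in this way and 0.419% in the opposite way; the other 6 genes described here overlapped. This split was noticed in the data and is given as a description.

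Periostin binds integrins and is made by activated fibroblasts and matrix-building tissue. Postn stood at 43.9, 69.6 and 35.1 CPM in the orthotopic tumours, 70.6 and 286 CPM in the subcutaneous tumours and 26.0, 45.2 and 63.1 CPM in the tumours on the intestine. It stood at 2.38, 0.302 and 0.918 CPM in the first tap and 1.1, 2.40 and 0.514 CPM in the second. The line had 0.265 CPM, healthy ovary 52.9 CPM and healthy intestine 27.6 CPM. Subcutaneous tumour 3 was the highest library, and first tap 2, with 8 counts, was close to the line. Thrombospondin 2, a secreted inhibitor of vessel growth, ran in parallel from an even lower base. Thbs2 stood at 34.6, 60.9 and 21.4 CPM in orthotopic tumours, 41.2 and 169 CPM under the skin and 10.8, 34.3 and 61.0 CPM on the intestine. Its ascites values were 2.52, 1.28 and 1.07 CPM in the first tap and 1.72, 3.43 and 0.441 CPM in the second, beside 27.8 CPM in healthy ovary and 8.22 CPM in healthy intestine. Ascites thus held reads of Thbs2 in all 6 libraries, 12 to 120 counts each, where the line held none.

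Tenascin C, a hexameric glycoprotein of remodelling tissue that weakens cell adhesion, kept more signal in ascites. Tnc stood at 149, 108 and 73.1 CPM in orthotopic tumours and 62.1 and 380.0 CPM under the skin. On the intestine it stood at 74.5, 95.7 and 97.2 CPM, beside 64.9 CPM in healthy ovary and 84.2 CPM in healthy intestine. The first tap gave 19.5, 10.3 and 4.44 CPM and the second 13.5, 19.8 and 16.1 CPM, so every ascites library was above the line's 2.52 CPM and under every solid sample. Fibrillin-1, which also holds latent TGF-beta complexes in the matrix, did not show that step above the line. Fbn1 stood at 197, 305 and 152 CPM in orthotopic tumours and 97.3 and 429 CPM under the skin. It stood at 83.7, 106 and 239 CPM on the intestine, beside 155 CPM in healthy ovary and 65.4 CPM in healthy intestine. Its ascites values of 4.65, 17.4 and 3.33 CPM in the first tap and 10.2, 13.8 and 6.35 CPM in the second lay on both sides of the line's 9.59 CPM.

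Promoter sequence from RefSeq (GRCm38.p6) is shown for 2 genes of this pattern, Postn and Tnc, and for Spp1, which went the other way, because the 3 share one simple feature. Each window is the 250 bases before an annotated transcript start, 5′ to 3′ on the gene's strand, with the letters TATAAA in capitals. Postn is on chr3:54360857-54361106 of the plus strand, Tnc on chr4:64047016-64047265 of the minus strand and Spp1 on chr5:104434861-104435110 of the plus strand, and none of the 3 windows overlaps an annotated exon. The Postn window lies downstream of another annotated start of that gene.
Postn: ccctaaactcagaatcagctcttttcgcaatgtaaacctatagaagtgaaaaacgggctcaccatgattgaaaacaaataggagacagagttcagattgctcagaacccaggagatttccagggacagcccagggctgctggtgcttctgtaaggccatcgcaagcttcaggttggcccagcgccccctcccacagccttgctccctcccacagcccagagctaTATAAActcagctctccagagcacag
Tnc: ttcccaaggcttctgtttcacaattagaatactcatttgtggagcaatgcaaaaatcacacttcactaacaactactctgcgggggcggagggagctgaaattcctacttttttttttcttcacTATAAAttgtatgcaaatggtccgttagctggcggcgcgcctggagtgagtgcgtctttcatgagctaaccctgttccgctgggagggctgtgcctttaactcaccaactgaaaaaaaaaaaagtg
Spp1: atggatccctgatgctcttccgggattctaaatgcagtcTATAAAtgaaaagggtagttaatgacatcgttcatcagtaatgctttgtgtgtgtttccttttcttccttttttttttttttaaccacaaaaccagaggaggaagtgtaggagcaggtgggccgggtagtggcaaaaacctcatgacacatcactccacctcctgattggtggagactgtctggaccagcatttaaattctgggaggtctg
In Postn the letters begin 26 bases before the start, in Tnc 126 bases and in Spp1 211 bases. A window was found for 8 of the 10 genes, not for Fn1 and Thbs1, and 4 of the 8 held TATAAA or its reverse complement TTTATA in at least 1 window, the fourth being Thbs2. The bases just after the start of the Thbs2 window were not found in a GENCODE transcript of that gene. Of all 32851 windows 12.4% held the letters, which is a share of windows and not of genes. The 8 genes have 11 windows, and those of Tnc overlap and hold the same TATAAA, so the shares are not of the same kind. The AP-1 letters TGANTCA, which read the same on both strands, were in 6.75% of all windows, and the TEAD letters GGAATG or CATTCC in 12.6%. Neither was in a window of these genes, which says only that these letters are not in those stretches.

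Against the line, edgeR's quasi-likelihood test called 4 of the 10 genes higher in orthotopic tumours and none lower, where 3.2% of all tested genes were called and 2.37% were called higher. Postn was 187-fold higher by the ratio of means (log2 fold change 7.52 ± 1.63 SE, adjusted p = 0.0321) and Tnc 43.7-fold higher (5.45 ± 1.2, adjusted p = 0.0341). Thbs2 was at least 490.2-fold higher than the 3-count floor of the line (adjusted p = 0.0215) and Tgfbi at least 3871-fold higher (adjusted p = 0.0118). The 22.7-fold difference of Fbn1 did not pass (4.50 ± 1.29, adjusted p = 0.0794). Without orthotopic tumour 1, 2 or 3 the calls of Postn and Tnc were lost in turn (adjusted p = 0.0528 to 0.0703), with log2 fold changes of at least 7.19 and 5.16, and those of Thbs2 and Tgfbi were kept. The median of the 10 genes was 2.78 on the log2 scale against 0.24 over all tested genes.

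Subcutaneous tumours had 5 of the 10 genes called higher than the line, where 9.49% of all tested genes were called and 6.25% were called higher. These were Postn, Tnc, Thbs2, Tgfbi and, with 27.5-fold, Fbn1 (4.78 ± 1.33 SE, adjusted p = 0.0442 by edgeR). The Fbn1 call held in 2 of 7 other settings: the difference was 3.20 without subcutaneous tumour 3 (adjusted p = 0.101) and 5.53 without subcutaneous tumour 2 (adjusted p = 0.0437). Without tumour 3 the differences of Postn and Tnc were 7.89 and 4.48, against 9.37 and 6.45 with both, and both passed (adjusted p = 0.0149 and 0.0147). Tumours on the intestine had Postn, Tnc, Thbs2 and Tgfbi called higher and Spp1 lower, where 15.2% of tested genes were called, 9.55% higher and 5.63% lower. Their Postn was 169-fold higher (7.38 ± 1.62, adjusted p = 0.0147) and their Tnc 35.4-fold higher (5.14 ± 1.18, adjusted p = 0.0170). In the first and in the second tap 1 gene was called, Tgfbi, where 4.22% and 4.43% of tested genes were called, and 3.11% and 3.16% were called higher. All of these comparisons share the same single library of the line. With the 2 groups alone in the fit, the subcutaneous and the first tap comparisons called none of the 10 genes, and 0 of all tested genes.

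Against the orthotopic tumours, 4 of the 10 genes were lower in the first tap and none higher, where 1.58% of all tested genes were called and 0.891% were called lower. Postn was 41.2-fold lower by the ratio of means (log2 fold change −5.34 ± 0.87 SE, adjusted p = 0.0242 by edgeR). Fbn1 was 25.7-fold lower (−4.68 ± 0.80, adjusted p = 0.0262), Thbs2 24.0-fold lower (−4.57 ± 0.90, adjusted p = 0.0344) and Tnc 9.65-fold lower (−3.27 ± 0.65, adjusted p = 0.0363). In the second tap 3 of the 10 were lower, where 1.09% of tested genes were called and 0.578% were called lower. Postn (−5.20 ± 0.86, adjusted p = 0.0275), Fbn1 (−4.43 ± 0.79, adjusted p = 0.0375) and Thbs2 (−4.38 ± 0.89, adjusted p = 0.0460) passed, and Tnc, 6.69-fold lower, did not (−2.74 ± 0.64, adjusted p = 0.0648). Both comparisons share the orthotopic libraries. All 4 genes were lower in ascites under each of 15 other settings, but sizes and calls moved. In the first tap Postn ranged from −6.45 to −5.01 and passed in 10 settings, Fbn1 from −5.88 to −4.35 in 8, Tnc from −3.94 to −2.97 in 7 and Thbs2 from −5.15 to −4.21 in 6. In the second Postn ranged from −6.06 to −4.99 and passed in 7, Fbn1 from −4.84 to −4.27 in 6, Thbs2 from −5.28 to −4.06 in 3 and Tnc from −3.14 to −2.46 in 3. The largest moves from 1 library were in the first tap, to −6.41 for Postn without first tap 1 and to −5.88 for Fbn1 without first tap 2. The count of 4 in the first tap fell to 0 without orthotopic tumour 1 or without orthotopic tumour 2, to 2 without orthotopic tumour 3 or first tap 1, to 1 without first tap 2 and to 3 without first tap 3. The count of 3 in the second tap fell to 1 without orthotopic tumour 3 and to 0 without any other single library of the 2 groups. Within the 10 libraries whose names start with SM, where each group kept 2 libraries, no gene of the table passed in either comparison, and the log2 fold changes of Postn were −6.45 and −6.06.

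Markers of stromal cells moved with these differences. The 6 endothelial markers summed to between 271 and 492 CPM in the orthotopic group and between 27.4 and 57.2 CPM in the 6 ascites libraries. The 7 smooth muscle and pericyte markers summed to 187–299 CPM in the orthotopic group, 16.3–39.5 CPM in ascites and 50.0 CPM in the line. The 6 fibroblast markers found were less apart, at 602 to 770 CPM in orthotopic tumours, 83.5 to 944 CPM in the first tap and 373 to 582.1 CPM in the second. Their members differed: Dcn reached 839 CPM in ascites, against 238 to 426 CPM in orthotopic tumours, while Lum was at 0 to 1.94 CPM in ascites against 24.7 to 71.7 CPM. The line itself held 167 CPM of the 6 fibroblast markers, with Dcn at 149 CPM, Pdgfra at 17.5 CPM and Lum at 0 counts. Dcn and the fibroblast sum in ascites therefore do not mark host cells alone. The part of these cell types in the differences was not tested.

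**Figure D2:**
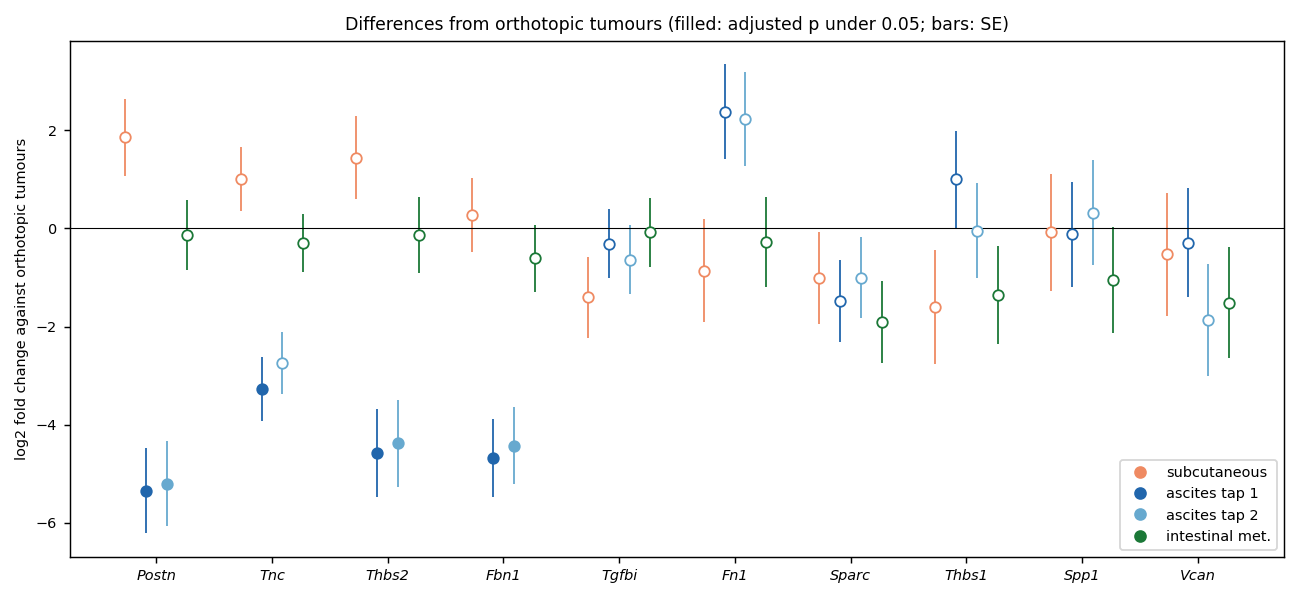
Log2 fold change of each gene against orthotopic tumours in 4 groups, with standard error bars and filled points where the adjusted p was under 0.05. The filled points are Postn, Thbs2 and Fbn1 in both taps and Tnc in the first, between −5.34 and −3.27, and Fn1 has open points at 2.38 and 2.23 in the taps.

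Tgfbi, which encodes a secreted integrin-binding protein of the same fasciclin family as periostin, was the gene most sharply split between culture and animal. It had 0 counts in the line and was at 329, 468 and 126 CPM in orthotopic tumours and 67.7 and 164 CPM in subcutaneous tumours. The first tap gave 197, 469 and 75.5 CPM, the second 182, 299 and 112 CPM, and the tumours on the intestine 485, 256 and 133 CPM. Healthy ovary, at 45.5 CPM, was the lowest tissue and healthy intestine had 225 CPM. Ascites and solid tumours overlapped fully. Tgfbi passed in each of the 5 comparisons with the line, with lower bounds of 1461-fold under the skin (adjusted p = 0.00970), 3110.5-fold in the first tap (adjusted p = 0.0112), 2490.4-fold in the second (adjusted p = 0.00992) and 3668-fold on the intestine (adjusted p = 0.00513), all by edgeR. Between orthotopic tumours and healthy ovary it differed 6.77-fold and did not pass (log2 fold change 2.76 ± 1.19 SE, adjusted p = 0.414). Of the 8 macrophage markers 6 (Adgre1, Mrc1, C1qa, C1qb, C1qc and Itgam) had 0 counts in the line. Cd68 had 178 counts there (4.71 CPM) and Csf1r 28 counts (0.742 CPM), and the sum was 5.46 CPM. All 8 were above 1 CPM in every other library. Endothelial, adipocyte and T cell markers were low in the line too, summing to 1.03, 0.0795 and 0.053 CPM. Of the libraries other than the line, tumour 1 on the intestine had the most Tgfbi and the lowest macrophage sum, 245 CPM. First tap 2, with 469 CPM of Tgfbi, had the highest macrophage sum, 9530.2 CPM. The part of any of these cell types in the Tgfbi level was not tested. Within a library the ratio of Tgfbi to Postn per kb of exon set the fluids apart from the solids: it was 189.7 to 3583 in the 6 ascites libraries, 8.33 to 17.3 in orthotopic tumours, 2.22 and 1.32 under the skin and 4.87 to 43.0 on the intestine.

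By counts Fn1 led the 10 genes in every ascites library, and also in tumours 2 and 3 on the intestine and in healthy intestine. Among ascites libraries, per kb of exon, it led in first tap 2 and the second taps, and Sparc led in first taps 1 and 3. Fn1 stood at 2587, 21505 and 3198 CPM in the first tap and at 7084, 12231 and 5293 CPM in the second. The line had 2022 CPM, the orthotopic tumours 2279.8, 759 and 2215 CPM, the subcutaneous tumours 399 and 1529.7 CPM and the tumours on the intestine 356, 1065 and 2924 CPM, beside 524 CPM in healthy ovary and 283 CPM in healthy intestine. In first tap 2 it had 569007 counts and was the most abundant gene of the library, and in the second tap it held ranks 6, 2 and 5. All 6 ascites libraries were above all orthotopic tumours, by a narrow margin in first tap 1, and only tumour 3 on the intestine reached into their range. The difference did not pass after adjustment, at 5.19-fold in the first tap (log2 fold change 2.38 ± 0.96 SE, adjusted p = 0.208) and 4.68-fold in the second (2.23 ± 0.96, adjusted p = 0.275). Without first tap 2 the first of these was 0.62. In 15 other settings the first ranged from 0.62 to 3.01 and passed in 0, and the second from 1.70 to 2.46 and passed in 1. Of all tested genes 13.6% were higher without overlap in the first tap and 18.8% in the second. The means of the taps, 9097 ± 10750.1 CPM (SD, n = 3) and 8203 ± 3602 CPM (SD, n = 3), lay within each other's spread.

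In the 6 ascites libraries the macrophage marker sum was 1459, 9530.2 and 1439 CPM in the first tap and 4437, 4749.95 and 2601 CPM in the second, against 280.3 to 449 CPM in the orthotopic group and 245 to 674 CPM on the intestine. The libraries with the most Fn1, first tap 2 and then second taps 2, 1 and 3, were those with the highest marker sums, in the same order. First taps 3 and 1 did not keep that order, with Fn1 at 3198 and 2587 CPM for sums of 1439 and 1459 CPM. Tumour 3 on the intestine had Fn1 at 2924 CPM with a sum of 674 CPM. The line had Fn1 at 2022 CPM with a marker sum of 5.46 CPM. The part of macrophages in the ascites level of Fn1 was not tested.

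**Figure D3:**
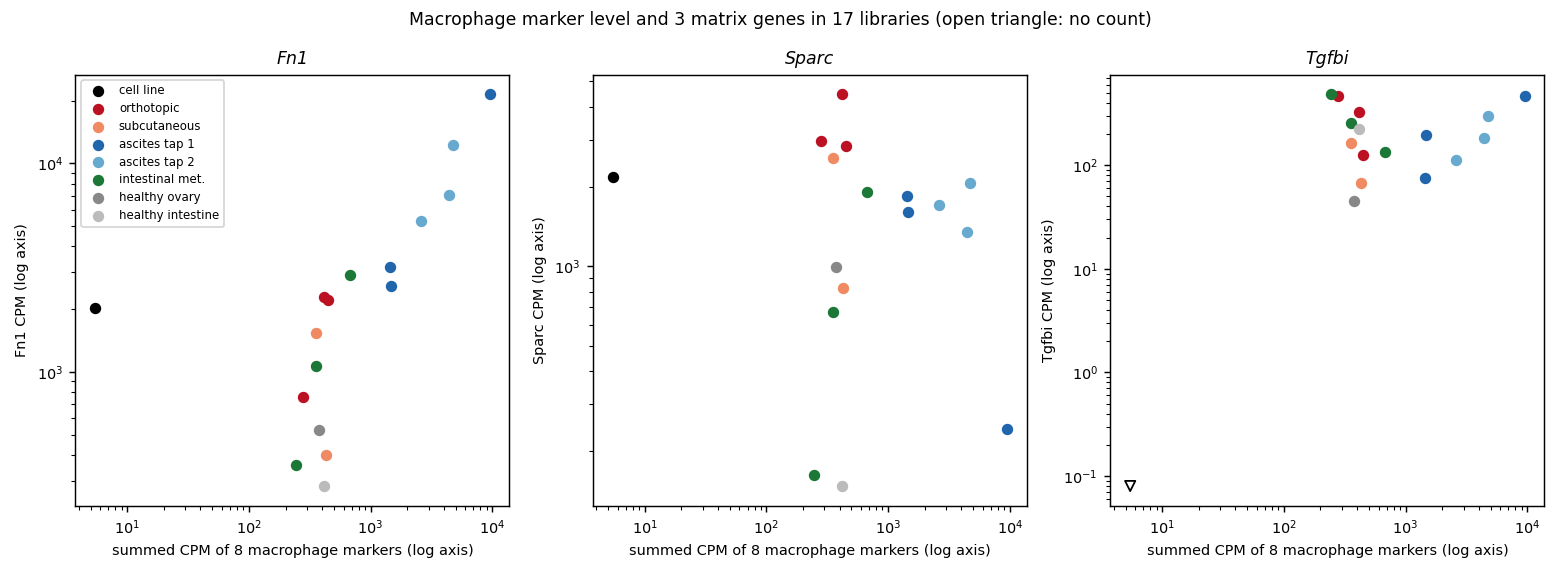
Level of Fn1, Sparc and Tgfbi in CPM against the summed CPM of 8 macrophage markers, both on log axes, with 1 point per library coloured by group. Among the ascites points Fn1 is highest and Sparc is lowest, at 242 CPM, in the library with the highest marker sum, 9530.2 CPM; the line lies far to the left, with Fn1 and Sparc high and Tgfbi at no count.

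Sparc, a collagen-binding counter-adhesive protein, was strong in the line at 2182 CPM and in orthotopic tumours at 4472, 2962 and 2854 CPM. The subcutaneous tumours had 828 and 2566 CPM, the first tap 1607, 242 and 1839 CPM and the second tap 1342, 2068 and 1696 CPM. On the intestine Sparc stood at 162, 673 and 1909 CPM, with 147 CPM in healthy intestine and 994 CPM in healthy ovary. The orthotopic tumours were the highest 3 libraries of all, and first tap 2 and tumour 1 on the intestine were far below their groups. The lower level on the intestine did not pass (log2 fold change −1.91 ± 0.84 SE, unadjusted p = 0.0428, adjusted p = 0.142 by edgeR), and it passed with tumour 3 on the intestine left out (−3.12, adjusted p = 0.0416), over a range of 0.0416 to 0.468 in 15 settings. In that group the summed epithelial markers were 4788 to 12366 CPM, and their part was not tested. The ratio of Fn1 to Sparc per kb was 0.300 in the line, 0.0831 to 0.252 in orthotopic tumours, 1.71, 1.92 and 1.01 in the second tap, and 0.522, 28.8 and 0.564 in the first.

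Thrombospondin 1 is a close relative of thrombospondin 2 and can activate latent TGF-beta. Unlike Thbs2, it had ascites values that overlapped those of orthotopic tumours. Thbs1 stood at 296 CPM in the line, 469.6, 889.8 and 498 CPM in orthotopic tumours and 39.3 and 368 CPM in subcutaneous tumours. The first tap gave 1161, 2364 and 187 CPM and the second 264, 1306 and 229 CPM. On the intestine it stood at 141, 138 and 448 CPM, with 269.7 CPM in healthy ovary and 45.1 CPM in healthy intestine. Both taps spanned the orthotopic range, and no comparison called it. The ratio of Thbs1 to Thbs2 per kb was 177 to 2121 in ascites, 15.7 to 26.9 in orthotopic tumours, 4.62 to 15.1 on the intestine and 1.1 and 2.51 under the skin. The line had no such ratio, as it had 0 counts of Thbs2. A ratio within a library shows unequal change of the 2 genes and not, by itself, which of them moved. In their levels against orthotopic tumours, Thbs2 was called lower in both taps (log2 fold changes −4.57 and −4.38). Thbs1 was not called in either (1.00 ± 0.99 SE and −0.05 ± 0.98 SE).

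**Figure D4:**
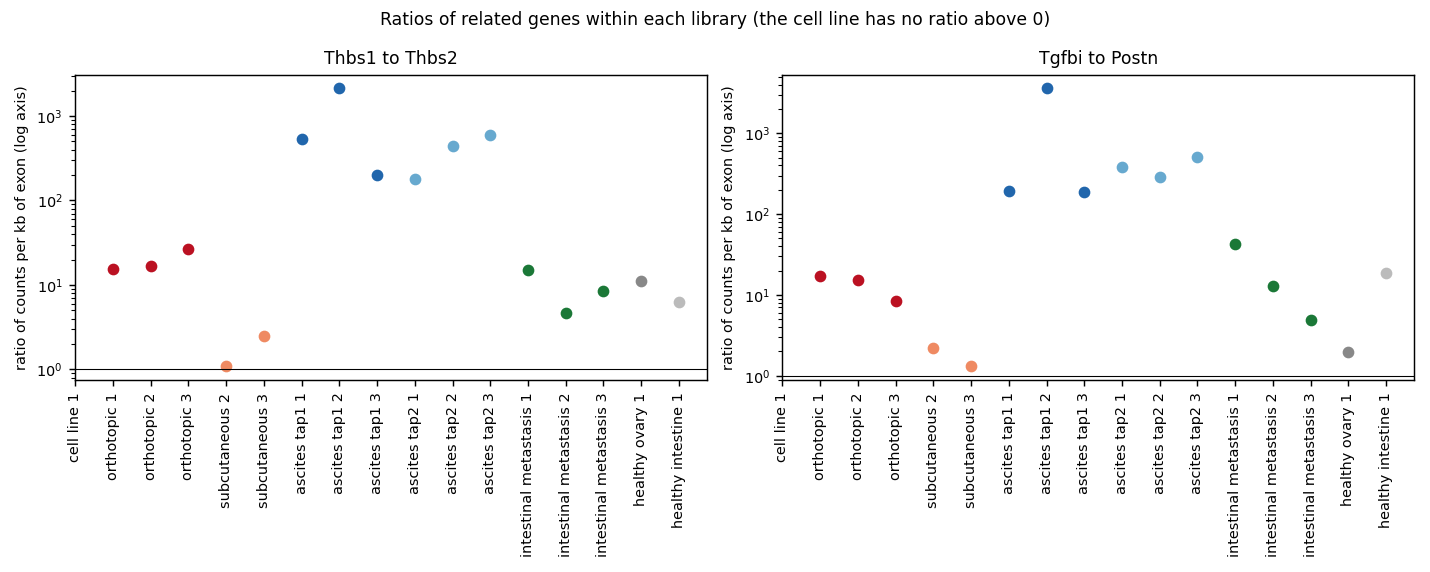
Ratio of Thbs1 to Thbs2 and of Tgfbi to Postn in each library, from counts per kb of exon, on log axes. The line is not drawn in either panel. It had 11182 counts of Thbs1 and 0 of Thbs2, so that ratio has no upper limit, and its ratio of Tgfbi to Postn was 0. The 6 ascites libraries lie at 177 or above in both panels and the 2 subcutaneous tumours are the lowest tumours, at 1.1 and 2.51 and at 2.22 and 1.32.

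Spp1, which encodes the integrin and CD44 ligand osteopontin, was the one gene whose highest library was the cultured line, at 1361 CPM. It stood at 68.2, 46.5 and 129.8 CPM in orthotopic tumours, 3.34 and 150.4 CPM under the skin, 79.1, 68.9 and 77.1 CPM in the first tap and 68.2, 195 and 41.0 CPM in the second. The tumours on the intestine had 12.4, 11.7 and 94.0 CPM, healthy ovary 33.6 CPM and healthy intestine 0.616 CPM, from 12 counts. The next highest library was second tap 2, and the first tap was the most even group, at 75.0 ± 5.41 CPM (SD, n = 3). Against the line Spp1 was 34.6-fold lower on the intestine (log2 fold change −5.11 ± 1.41 SE, adjusted p = 0.0321 by edgeR). It did not pass in orthotopic tumours, 16.7-fold lower (−4.06 ± 1.38, adjusted p = 0.121), under the skin, 17.7-fold lower (−4.15 ± 1.60, adjusted p = 0.115), or in the taps, 18.1-fold and 13.4-fold lower (−4.18 ± 1.38, adjusted p = 0.108; −3.75 ± 1.37, adjusted p = 0.142). The call on the intestine held in 4 of 9 other settings. It was lost without tumour 1 (−4.66, adjusted p = 0.0905) or tumour 2 there (−4.65, adjusted p = 0.0924), and without tumour 3, the highest of the group, the difference was −6.92 (adjusted p = 0.0168). The comparison rests on 1 culture. Against healthy intestine the tumours there were 63.9-fold higher by means and did not pass (5.99 ± 2.28, unadjusted p = 0.0217, adjusted p = 1); DESeq2 called this difference.

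Versican swells the matrix together with hyaluronan. Vcan stood at 118 CPM in the line, 133, 218 and 84.2 CPM in orthotopic tumours and 38.6 and 162 CPM in subcutaneous tumours. The first tap gave 48.1, 302 and 6.27 CPM and the second 19.5, 88.6 and 11.4 CPM. On the intestine it stood at 26.7, 34.7 and 91.0 CPM, beside 258 CPM in healthy ovary and 11.9 CPM in healthy intestine. First tap 2 was above all orthotopic tumours and 48.1 times first tap 3, and the other 5 ascites libraries lay under the line. No comparison called Vcan.

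As a share of all counts, the 10 genes took 0.582% of the line's library, between 0.648% and 0.810% of the orthotopic libraries and 0.157% and 0.842% of the subcutaneous ones. They took 0.550%, 2.68% and 0.574% in the first tap, 1.00%, 1.46% and 0.815% in the second, 0.109%, 0.172% and 0.668% on the intestine, 0.271% in healthy ovary and 0.0691% in healthy intestine. Fn1 made up 71.5% to 78.8% of that share in the second tap and 45.3%, 86.1% and 59.3% of it in the first. In orthotopic tumours Fn1 made up 12.9% to 35.8% and Sparc 46.1% to 54.7%, and in first taps 1 and 3 Sparc made up 28.2% and 34.1%. Per kb of exon Spp1 led in the line, Sparc in the orthotopic and subcutaneous tumours, first taps 1 and 3, tumours 2 and 3 on the intestine and healthy ovary, Fn1 in first tap 2 and all second taps, and Tgfbi in tumour 1 on the intestine and in healthy intestine.

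**Figure D5:**
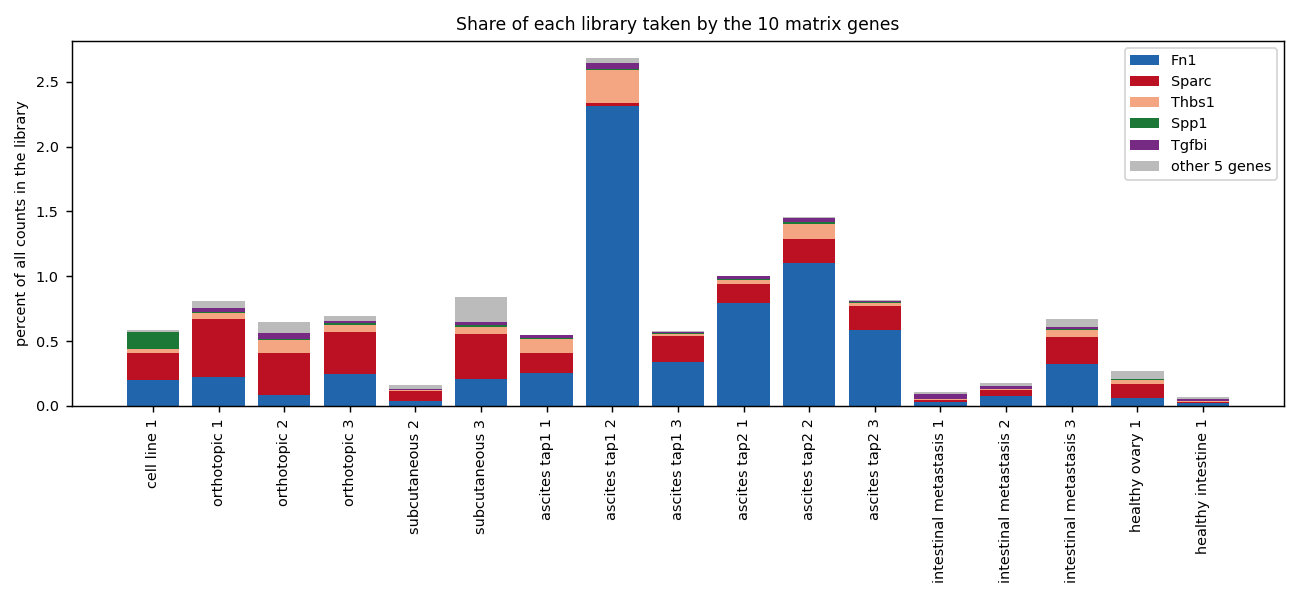
Percent of all counts in each library taken by the 10 genes, stacked with Fn1, Sparc, Thbs1, Spp1 and Tgfbi in colour and the other 5 in grey; the axis starts at 0. First tap 2 is the tallest bar, at 2.68% with 2.31% from Fn1, and the shortest bars are healthy intestine, tumour 1 on the intestine, subcutaneous tumour 2 and tumour 2 on the intestine, at 0.0691% to 0.172%.

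Between solid sites no difference of the 10 genes passed. None of the 10 genes passed between subcutaneous and orthotopic tumours, where 0.0132% of tested genes were called by edgeR. At an unadjusted p under 0.05 there was 1, Postn, 3.60-fold higher under the skin (log2 fold change 1.85 ± 0.79 SE, unadjusted p = 0.0370, adjusted p = 0.215), and DESeq2 called none. The value rests on subcutaneous tumour 3, without which it was 0.37 (adjusted p = 0.844, over a range of 0.110 to 0.852 in 12 settings). None passed between tumours on the intestine and orthotopic tumours, although 15.5% of tested genes did, with 1 at an unadjusted p under 0.05, Sparc, and none by DESeq2. The medians there were −0.46 for the 10 genes and 0.06 for all tested genes on the log2 scale. None passed against healthy ovary, where 0.6% of tested genes were called, with Tgfbi alone at an unadjusted p under 0.05. Against healthy intestine no gene of the table was called by edgeR, 0 of 22671, with Spp1 alone of the 10 at an unadjusted p under 0.05. The difference between the 2 tumour-to-tissue contrasts, on the intestine and in the ovary, was tested as an interaction chosen after the data were seen, and 0 of 22671 genes passed.

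No difference between the second and the first tap was called. None of the 10 genes passed, nor did any of the 22671 tested genes, and none of the 10 reached an unadjusted p under 0.05 or was called by DESeq2. The 10 genes overlapped between the taps in every case, and their median log2 fold change was 0.17, against −0.04 for all tested genes.

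Other genes of the same pathways, from 4 lists made by function, were compared across the sites. Of 18 microfibril and elastic fibre genes, 4 fell in the first tap against orthotopic tumours (median of the list −1.41 on the log2 scale, all tested genes 0.18), where 0.891% of all tested genes were called lower. Examples are Mfap4, a microfibril-associated protein, which fell by 7.25 ± 1.33 (SE, adjusted p = 0.0309 by edgeR) from 20.2 to 0.133 CPM, and Mfap2, another one, which fell by 5.61 ± 1.1 (adjusted p = 0.0346). In the second tap 3 of the 18 fell (median −1.14, all tested genes 0.13; 0.578% of tested genes were called lower), where Mfap4 fell by 7.20 ± 1.31 (adjusted p = 0.0405) and the fibulin Fbln1 fell by 5.18 ± 0.97 (adjusted p = 0.0407). Of 18 other matricellular genes 1 fell in each tap, Sparcl1, a relative of Sparc that is known from vessel walls. Its level was 63.0 to 97.4 CPM in the orthotopic group and under 1 CPM in all 6 ascites libraries (−7.22 ± 0.81, adjusted p = 0.00900, and −8.43 ± 0.86, adjusted p = 0.00893), while Sparc itself was not called. The endothelial marker sum of 27.4 to 57.2 CPM in ascites against 271 to 492 CPM moved with it, and its part was not tested.

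Of the 12 hyaluronan and versican partner genes tested of 13 listed, 2 fell in the first tap, the versican-cleaving proteases Adamts4 (−3.14 ± 0.52 SE, adjusted p = 0.0242 by edgeR) and Adamts5 (−2.47 ± 0.55, adjusted p = 0.0477), and 1 in the second, Adamts4 (−2.49 ± 0.50, adjusted p = 0.0448). The shares of all tested genes called lower, 0.891% and 0.578%, hold here too. None of the 12 cell surface receptors listed was called in either tap, and their medians were 0.02 and −0.01. On the intestine, against orthotopic tumours, 5.13% of all tested genes were called lower and 10.4% higher, so 1 of 18 matricellular and 2 of 18 microfibril genes lower and 1 of 12 receptors higher are no result about the lists. Smoc1 of the matricellular list fell by 4.81 ± 1.33 (adjusted p = 0.0316), and Ltbp3 and Efemp2 of the microfibril list fell by 2.69 ± 0.69 and 2.57 ± 0.66 (adjusted p = 0.0227 and 0.0234). The receptor gene Itgb6, an epithelial integrin subunit that binds fibronectin and latent TGF-beta, rose there from 0.782 to 74.7 CPM (6.57 ± 1.85, adjusted p = 0.0328), beside 72.1 CPM in healthy intestine. The list calls depended on the setting. The microfibril count ranged from 0 to 8 in the first tap and 0 to 9 in the second over the other settings, the other matricellular count from 0 to 4 in each and the hyaluronan count from 0 to 4 in each. Sparcl1 passed in 14 of 15 settings in the first tap and 13 of 15 in the second, failing without second tap 1 (adjusted p = 0.0562) and in the SM libraries. Mfap4 passed in 8 and 6 of 15, Adamts4 in 9 and 4, Fbln1 in 5 in the second tap, and Mfap2 and Adamts5 in 5 each in the first. Without orthotopic tumour 2 the difference of Smoc1 was −2.53 (adjusted p = 0.159), and without tumour 1 on the intestine that of Itgb6 was 5.06 (adjusted p = 0.112). Ltbp3 and Efemp2 each passed in 10 of 15 settings. None of the genes on these 4 lists was called in the reported fit between subcutaneous and orthotopic tumours or between the taps.

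The genes most like each member were ranked by Pearson's r of log2(CPM + 1) over the 17 libraries, which share library and depth effects, so r is a description. For Postn these were Lrrc32 (0.98), Thbs2 (0.98) and Lum (0.97), and for Thbs2 they were Postn (0.98), Lum (0.96) and Fndc1 (0.96). Fbn1 was nearest to Col3a1 (0.97), Mmp2 (0.97) and Lrrc32 (0.97), and Tnc to Postn (0.94), Thbs2 (0.93) and Sfrp1 (0.93). Fn1 was nearest to Adamtsl4 (0.93), Car6 (0.91) and Ecm1 (0.91), and its r with Postn was −0.66. Sparc was nearest to Wwtr1 (0.97), Itgb8 (0.95) and Mxra7 (0.94), and Spp1 to Slc29a1 (0.91), Ttc9 (0.89) and Ammecr1 (0.89). For Tgfbi the nearest were Kdm7a (0.89), Pmp22 (0.87) and Cx3cr1 (0.87), a chemokine receptor of macrophages and monocytes. Thbs1 (Spred1 0.86, Dip2c 0.83, Spsb4 0.83) and Vcan (Ltbp1 0.84, Leprel1 0.84, Cd109 0.82) had the weakest likenesses.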

How the data were processed

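The authors deposited raw read counts for each Ensembl gene, made from Trizol-extracted total RNA and directional libraries per the labels' protocols. The submitters' processing notes name HISAT, HISAT2, featureCounts and DESeq2, and the builds hg19 and mm39. Versions, and whether counting used strand, are not given in the sources used here, so reads of a gene and of an overlapping antisense gene cannot be told apart. Of 43629 genes 39055 had a count. Every row of the table names a gene. The same table was deposited under 2 names. In it 1 column, with the heading of a further subcutaneous tumour, fits no listed sample and was not used. A later tap named in the protocol is not analysed here.

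In R 4.3.3, edgeR 4.0.16 fitted the 22671 genes above 0.5 CPM in at least 2 libraries in 1 robust quasi-likelihood model of all 17 libraries, with TMM scaling and 9 residual degrees of freedom. Calls need an adjusted p under 0.05 (Benjamini-Hochberg over all tested genes). There were 12 comparisons, 7 of them against a single library. CPM are counts over the library total of the tested genes times the TMM factor (0.701 to 1.37), with SD between libraries and SE for log2 fold changes. Zeros in the line were bounded by 3 counts in that library, for counting error only, since reads carried no molecular identifiers. Lengths are GENCODE union exons and promoters RefSeq's GRCm38.p6 table. Alternatives were DESeq2 1.42.0, library size alone, no filter, fewer samples, the library name prefix, leaving out single libraries, and a replicate block. The procedure was tested on simulated counts. All members are named, with the 3 genes most like each (of genes with a symbol) and up to 2 genes per direction of each related list. The members and lists were chosen with earlier results of these data known.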

Additional observations from a re-analysis of the deposited data

How the results depend on the processing

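Depth and group size limit these results: ascites levels of Postn and Thbs2 rest on 8 to 120 counts, and single libraries stand for the line and the healthy tissues. The log2 fold changes given above kept their sign under the alternatives run, for the 10 genes and for 16 differences of related-list genes. The latter were added after seeing the data and passed in 119 of 240 values. Of the other 80 differences, which passed under no setting, 36 changed sign at least once, in 80 of 931 values with an adjusted p of 0.3 or more. Library size alone moved the median of all tested genes by −0.29 (tumours on the intestine against orthotopic tumours) to 0.25 (subcutaneous tumours against the line) on the log2 scale. Counts of the 10 genes called moved as follows, and the cause was not tested. DESeq2 called 3 in the first and 3 in the second tap against the line (1 each in the reported fit) and 1 on the intestine against healthy intestine (0). Library size alone called 1 and 0 in the first and second tap against orthotopic tumours (4 and 3). With only the 2 groups compared, 0 were called under the skin (5) and 0 in the first tap against the line, 3 in the second tap against the line, and 2 and 5 in the taps against orthotopic tumours. The libraries named SM gave 0 and 0 in those last comparisons. Leaving out the 3 libraries with over 30000 genes, chosen after seeing the data, gave 2 and 2 in the taps against the line. Leaving out 1 library gave 2 in orthotopic tumours against the line (4), 0 to 3 in the first tap and 0 to 1 in the second against orthotopic tumours, and 0 to 1 on the intestine against them (0). With the replicate number as a block, 0 and 0 were called in the taps against orthotopic tumours (adjusted p of Postn 0.0598 and 0.0683); with the replicated groups alone and no block, chosen after seeing the data, 4 and 3 were called. The block changed no other of these counts. The numbers are not stated to pair samples. Over 26 same-numbered pairs of libraries r of their deviations ran from −0.557 to 0.441, with a median of 0.045. Over 52 pairs with unlike numbers it ran from −0.352 to 0.673, with a median of −0.023. Values of r for subcutaneous tumours 2 and 3 mirror each other exactly, so they are tied within a group and cannot settle whether numbers pair samples. The prefix could not be used as a term for subcutaneous tumours, whose libraries alone carry SCT. Over all tested genes, calls against orthotopic tumours ranged from 0 to 2571 in the first tap (358 reported), 0 to 1930 in the second (248), 0 to 2274 under the skin (3) and 654 to 5921 on the intestine (3517). Against the line they ranged from 309 to 3867 in orthotopic tumours (726), 0 to 5997 under the skin (2151), 0 to 3637 and 347 to 3761 in the taps (957 and 1004) and 2031 to 6413 on the intestine (3441). They ranged from 0 to 745 against healthy ovary (136), 0 to 45 against healthy intestine (0) and 0 to 2 between the taps (0). DESeq2 gave the highest count in each except orthotopic tumours against the line, where it gave 3634.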
